A study of Zea mays with 18 samples.

Results

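The genes described here are 4 maize gene models at the entry of the C4 carbon cycle, among 31855 gene models measured. They were chosen by name: pep1 (GRMZM2G083841), the C4 phosphoenolpyruvate (PEP) carboxylase, PPCK2 (GRMZM2G135091), a PEP carboxylase kinase, and the carbonic anhydrase models GRMZM2G121878 and GRMZM2G348512. Earlier results of these data were known at that choice, so the share of these genes that differ may depend on it. Leaves of Xianyu 335, a commercial maize hybrid, were taken during grain filling from plants at high (H) or low (L) density and sequenced in 18 RNA libraries, 3 in each of 6 groups. HA and LA are titled as the third leaf above the ear (upper leaf), HE and LE as the leaf at the ear, and HB and LB as the third leaf below the ear (lower leaf). For the 3 LA libraries the treatment label states high density although their titles start with L, and each value that sets LA beside another group carries this conflict. All groups share the hybrid, the stage and growth conditions that the labels call normal, and neither the planting densities nor the number of plants behind a library is given.

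In C4 leaves, carbonic anhydrase converts CO2 to bicarbonate in the mesophyll cytosol, and PEP carboxylase joins bicarbonate to PEP to make oxaloacetate. The oxaloacetate is turned into malate or aspartate, which moves to the bundle sheath cells and releases CO2 beside Rubisco. PEP carboxylase kinase phosphorylates PEP carboxylase in the light, which makes the enzyme less sensitive to inhibition by malate, and the kinase itself is known to be controlled largely through its amount.

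The values are RPKM, reads scaled by gene length and by library size, which are per length and so can be compared between genes. The RPKM values of a library summed to 560984 to 595593, with 25749 to 27316 genes above 0. The absolute depth is unknown, and the relative depth recovered from the smallest values ran from 0.886 to 1.12, so libraries differed little in depth. Within that range all LE libraries (0.918 to 0.957) lay below all HE libraries (1.01 to 1.05). Levels of the 3 HB libraries correlated across genes at 0.970 to 0.976 with each other and at no more than 0.948 with any other library. That highest value was between HB replicate 1 and LB replicate 2. The library outside HB nearest to HB replicate 2 was also LB replicate 2 (0.935), and that nearest to HB replicate 3 was HE replicate 3 (0.934). LB replicate 2 stood nearer to an ear-leaf library of the same density (0.966 with LE replicate 2) than to its own group (0.954 to 0.957). HA replicate 3 and LA replicate 1 correlated more with each other (0.982) than with the libraries of their own groups (0.979 to 0.980), and these are the groups that the conflicting LA label touches. All 4 members passed the filter of at least 1 RPKM in at least 3 libraries, as did 21184 genes, and each was tested with limma on log2(RPKM + 0.5). An adjusted p is the Benjamini-Hochberg value over those genes, and a gene with adjusted p under 0.05 is called higher or lower. Separate plants for the replicates are not stated in the labels, and p-values therefore measure the spread between these samples only. The tissue markers were present, with the antenna protein gene lhcb5 at group means of 207 to 455 RPKM, while the endosperm gene zp15 was listed at 0 in all libraries but 1, at 0.0563 RPKM.

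The gene for the C4 PEP carboxylase, pep1, was among the most abundant transcripts of these leaves, except in the lower leaf at high density. Its level ranked between 2 and 11 in each of the 15 libraries outside HB, and between 59 and 136 in the HB libraries. In the lower leaf pep1 stood at 618, 461 and 374 RPKM at high density and at 3881, 2063 and 5264 RPKM at low density, in order of replicate. Every HB library lay well below every LB library, and the lowest LB library was LB replicate 2. The mean fell to 484 ± 124 RPKM (SD, n = 3) from 3736 ± 1606 RPKM, which is 13.0% of the low-density mean. The log2 fold change of HB against LB was -2.87 ± 0.32 (SE, limma adjusted p = 2.53e-05), and 0.0755% of the genes tested had a log2 fold change as low or lower. Without LB replicate 2 it was -3.25.

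In the ear leaf pep1 stood at 4302, 3782 and 3824 RPKM at high density and at 5361, 4182 and 4788 RPKM at low density. The groups overlapped, and the log2 fold change of HE against LE was -0.26 ± 0.32 (limma adjusted p = 0.628), with a 95% interval from -0.94 to 0.42. In the upper leaf the levels were 4704, 4747 and 5513 RPKM in HA and 6486, 4659 and 6016 RPKM in LA, again overlapping, with a log2 fold change of -0.19 and an adjusted p of 0.890. Its 4988 ± 456 RPKM in HA and 5720 ± 949 RPKM in LA were the highest group means of the gene.

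**Figure D1:**
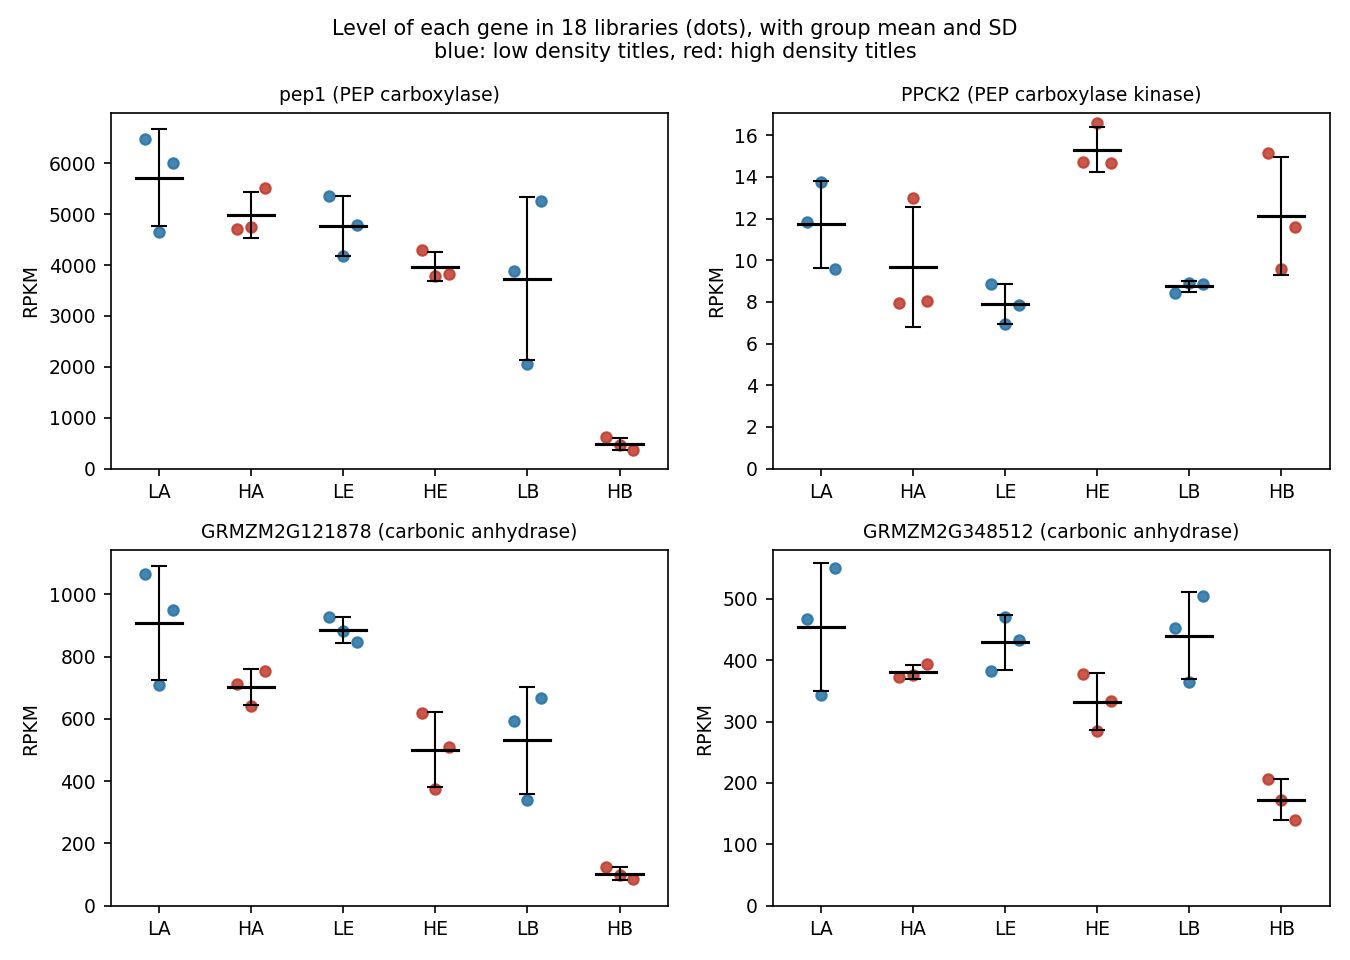
RPKM of pep1, PPCK2, GRMZM2G121878 and GRMZM2G348512 in each of the 18 libraries (points), with the group mean and SD (n = 3), for the upper (LA, HA), ear (LE, HE) and lower (LB, HB) leaf, low density in blue and high density in red. pep1 and both carbonic anhydrases are lowest in HB, where pep1 lies between 374 and 618 RPKM, while PPCK2 is highest in HE.

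PPCK2, whose protein phosphorylates PEP carboxylase, was a transcript of moderate abundance, with another order of levels than pep1. In the ear leaf its libraries stood at 14.7, 16.6 and 14.7 RPKM at high density and at 8.85, 6.94 and 7.85 RPKM at low density. The HE libraries all lay above the LE libraries. The mean rose to 15.3 ± 1.08 RPKM (SD, n = 3) from 7.88 ± 0.955 RPKM, or 194% of the low-density mean, with a log2 fold change of 0.92 ± 0.19 (limma adjusted p = 0.00664). It was called in each of the 15 alternative settings and left-out libraries tried, at 0.84 or more.

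In the lower leaf PPCK2 stood at 15.2, 9.57 and 11.6 RPKM in HB and at 8.42, 8.92 and 8.88 RPKM in LB. The groups did not overlap, but the log2 fold change of 0.42 ± 0.19 was not called (limma adjusted p = 0.0908). It was called without HB replicate 2, at 0.58 and an adjusted p of 0.0445. In the upper leaf PPCK2 overlapped between 7.96, 13.0 and 8.05 RPKM in HA and 11.8, 13.8 and 9.59 RPKM in LA, and the log2 fold change was -0.29 (adjusted p = 0.676). HA replicate 2 was the highest of its group. Read by group means, PPCK2 was at 9.67 ± 2.88 RPKM in HA, 11.7 ± 2.09 RPKM in LA, 12.1 ± 2.83 RPKM in HB and 8.74 ± 0.276 RPKM in LB.

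The carbonic anhydrase models were both abundant, and GRMZM2G121878 was the more abundant in the upper and ear leaf. The RefSeq table pairs GRMZM2G348512 with a pair of genes, one of them named csu869(cah), and GRMZM2G121878 with a single gene. These 3 RefSeq genes lie on chromosome 3 of Zm-B73-REFERENCE-NAM-5.0 with 0 other protein-coding genes between them, a different assembly from the B73 RefGen_v3 of the values. The models belong to neighbouring genes of a family, so the split of reads between them is uncertain.

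GRMZM2G121878 was lower at high density in both the lower and the ear leaf. Its lower-leaf libraries stood at 125, 99.6 and 84.6 RPKM in HB and at 592, 338 and 666 RPKM in LB. No HB library came near the LB libraries, and LB replicate 2 was again the lowest of its group. The mean of 103 ± 20.5 RPKM in HB was 19.4% of the 532 ± 172 RPKM in LB, and the log2 fold change was -2.32 ± 0.24 (limma adjusted p = 1.41e-05), with 0.179% of the genes tested as low or lower. In the ear leaf the gene stood at 618, 375 and 511 RPKM in HE and at 927, 883 and 846 RPKM in LE. The HE libraries all lay below the LE libraries, with means of 501 ± 122 and 885 ± 40.3 RPKM and a log2 fold change of -0.85 ± 0.24 (limma adjusted p = 0.0306). That call ended when any of 5 of the 6 libraries was left out, namely all but HE replicate 1, with log2 fold changes then of -0.88 to -0.65 and adjusted p-values up to 0.149. It also ended with no filter on low values (adjusted p = 0.0558). In the upper leaf the 711, 640 and 754 RPKM of HA overlapped the 1066, 707 and 949 RPKM of LA, and the log2 fold change was -0.35 (adjusted p = 0.693).

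GRMZM2G348512 was also lower at high density in the lower leaf, with a log2 fold change nearer to 0. It stood at 206, 172 and 139 RPKM in HB and at 453, 364 and 504 RPKM in LB. The groups lay clearly apart. The mean of 172 ± 33.4 RPKM in HB was 39.1% of the 440 ± 70.7 RPKM in LB, and the log2 fold change was -1.36 ± 0.19 (limma adjusted p = 0.000104), with 1.45% of the genes tested as low or lower. In the ear leaf it stood at 378, 285 and 334 RPKM in HE and at 382, 471 and 434 RPKM in LE. The highest HE library came close to the lowest LE library without overlap, and the log2 fold change of -0.37 ± 0.19 was not called (adjusted p = 0.193, 95% interval -0.77 to 0.02). After quantile normalization it was called, at -0.48 (adjusted p = 0.0452). In the upper leaf it stood at 373, 376 and 394 RPKM in HA and at 468, 343 and 550 RPKM in LA, overlapping, with a log2 fold change of -0.23 (adjusted p = 0.750).

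Over the 4 members, 3 were called lower and 0 higher in HB against LB, where 33.4% of all genes tested were called and 11.3% were called lower. The median log2 fold change of the members was -1.84, and that of all genes 0.16. Rescaling each library by the median ratio over genes moved that median to 0.01, and the members then had log2 fold changes of -3.03 (pep1), -2.48 (GRMZM2G121878), -1.52 (GRMZM2G348512) and 0.27 (PPCK2). In HE against LE, 1 member was called higher and 1 lower, where 13.9% of all genes were called, 8.97% higher and 4.97% lower. The medians there were -0.32 for the members and 0.03 for all genes. In HA against LA, 0 of 4 members were called by limma and 0 had an unadjusted p under 0.05, where 0.118% of all genes were called. All 4 members were without overlap between HB and LB, against 39.9% of all genes, and 3 of 4 between HE and LE, against 40.9%. Between HA and LA 0 of 4 were without overlap, against 14.3% of all genes.

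**Figure D2:**
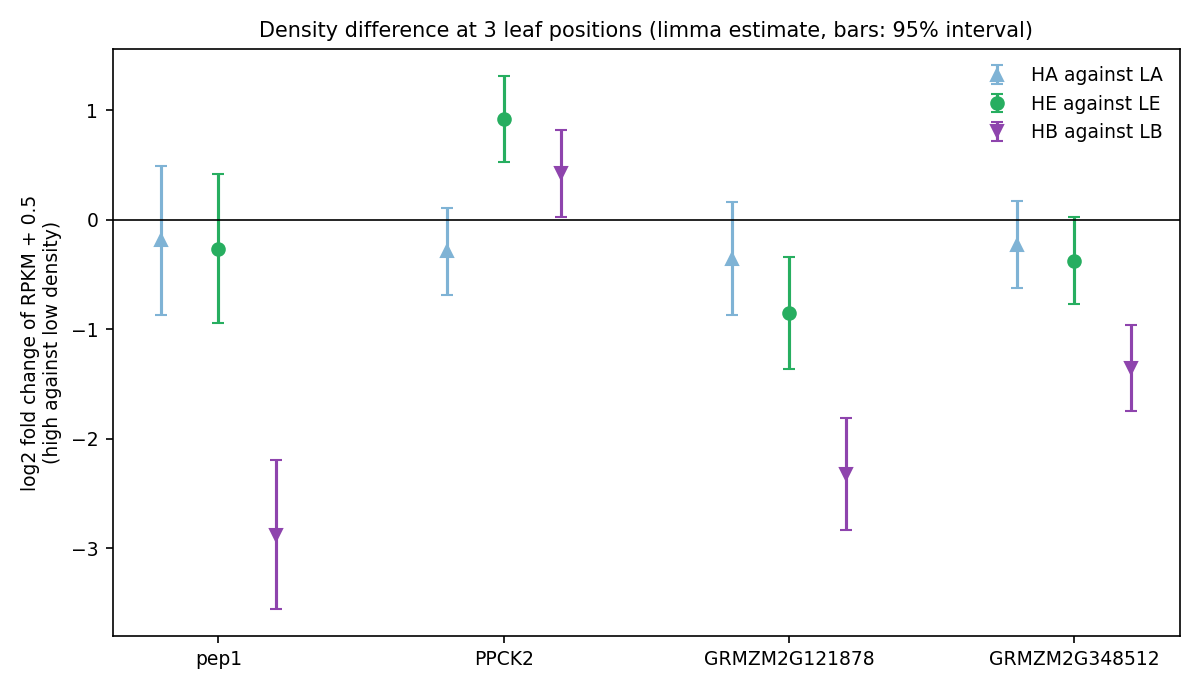
limma log2 fold change on log2(RPKM + 0.5) of high against low density with its 95% interval for the 4 members, in the upper (HA against LA), ear (HE against LE) and lower leaf (HB against LB), 3 libraries a group. In the lower leaf the intervals of pep1 (-2.87) and both carbonic anhydrases (-2.32 and -1.36) lie below 0, and in the ear leaf that of PPCK2 (0.92) lies above 0.

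Whether the density change differed between leaves was tested directly as a difference of log2 fold changes. The density change of the lower leaf was more negative than that of the ear leaf for pep1 by -2.61 ± 0.46 (limma adjusted p = 0.00728), for GRMZM2G121878 by -1.47 ± 0.34 (adjusted p = 0.027) and for GRMZM2G348512 by -0.99 ± 0.26 (adjusted p = 0.0473). These are 3 of 4 members called, where 3.85% of all genes were called and 2.09% were called lower. With no filter on low values all 3 calls ended, at adjusted p-values of 0.0608, 0.0527 and 0.0794 in the same order. Leaving out any 1 of 12 libraries kept the call of pep1 (-2.99 to -2.31), while 8 of these libraries ended that of GRMZM2G121878 (all but HE replicate 2, HB replicate 1, LE replicate 1 and LB replicate 2) and 10 that of GRMZM2G348512 (all but HB replicate 1 and LB replicate 2). For PPCK2 the difference was -0.50 (adjusted p = 0.307).

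Against the upper leaf, the lower leaf again had the more negative density change for pep1, by -2.69 (limma adjusted p = 0.00278), for GRMZM2G121878, by -1.97 (adjusted p = 0.00329), and for GRMZM2G348512, by -1.13 (adjusted p = 0.0135). The percentage of all genes called was 11.4, with 5.1% called lower. These 3 calls held in all 20 alternatives, but they rest on the LA libraries with their conflicting label and share the HB and LB libraries with the comparison to the ear leaf. For PPCK2 the difference was 0.71 (adjusted p = 0.0927), and it was called at 0.93 without HA replicate 2 (adjusted p = 0.0189). Between the upper and the ear leaf, limma called 0 genes (0% of those tested), with 3284 at an unadjusted p under 0.05. PPCK2 was among these at -1.21 ± 0.26 (unadjusted p = 0.000295, adjusted p = 0.123), and without HA replicate 2 it was -1.43 with an adjusted p of 0.039.

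Along the plant, pep1 and the carbonic anhydrases differed between leaves mainly at high density and mainly through the lower leaf. Against the ear leaf (HB against HE), 3 of 4 members were called lower, where 27.9% of all genes were called and 10.7% called lower: pep1 at -3.06 (limma adjusted p = 1.26e-05), GRMZM2G121878 at -2.27 (adjusted p = 1.52e-05) and GRMZM2G348512 at -0.96 (adjusted p = 0.00131). In HA against HB the same 3 were called higher, where 43.9% of all genes were called and 15.5% called higher, with log2 fold changes of 3.39, 2.78 and 1.16. PPCK2 was at -0.35 in HB against HE (adjusted p = 0.179) and at -0.32 in HA against HB (adjusted p = 0.176), the latter called at -0.54 without HA replicate 2 (adjusted p = 0.0211). These comparisons share the HB libraries with each other and with HB against LB. Between the upper and the ear leaf at high density (HA against HE), limma called 0 of 4 members and 1 had an unadjusted p under 0.05, where 2.44% of all genes were called. That member was PPCK2, at -0.67 (adjusted p = 0.073), which became -0.89 (adjusted p = 0.00964) without HA replicate 2.

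At low density fewer members were called between leaves. In LA against LB, GRMZM2G121878 was called higher at 0.81 (limma adjusted p = 0.0466), 1 of 4 members where 9.49% of all genes were called and 4.94% called higher. That call ended without any of LA replicate 1, LA replicate 3, LB replicate 1 or LB replicate 2, and without LB replicate 2 the value was 0.51 (adjusted p = 0.195). pep1 stood at 0.70 (adjusted p = 0.168) and at 0.33 without LB replicate 2 (adjusted p = 0.562), PPCK2 at 0.39 (adjusted p = 0.185) and GRMZM2G348512 at 0.03 (adjusted p = 0.936). In LA against LE limma called 0 of 4 members, where 5.74% of all genes were called, and 1 member, PPCK2 at 0.54 (adjusted p = 0.086), had an unadjusted p under 0.05. In LB against LE limma called 0 of 4 members, where 0.288% of all genes were called, and 1 member, GRMZM2G121878 at -0.79 (adjusted p = 0.210), had an unadjusted p under 0.05.

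The order of the group means therefore differed by gene. For pep1 it ran LA, HA, LE, HE, LB, HB from high to low, and of the neighbours in that order only LB and HB did not overlap. For GRMZM2G121878 it ran LA, LE, HA, LB, HE, HB, with LE apart from HA and HE apart from HB. For GRMZM2G348512 it ran LA, LB, LE, HA, HE, HB, with only HE and HB apart. For PPCK2 it ran HE, HB, LA, HA, LB, LE, and all neighbours overlapped. HB was thus last for 3 genes and second for the kinase.

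Ratios within a library do not depend on how that library was scaled. The level of GRMZM2G121878 was 2.08 ± 0.297 times that of GRMZM2G348512 in LE (SD, n = 3), 2.02 ± 0.279 times in LA, 1.84 ± 0.122 times in HA, 1.49 ± 0.163 times in HE and 1.19 ± 0.223 times in LB. In HB it was 0.599 ± 0.0164 times, so GRMZM2G348512 had the higher RPKM there, as it also had in LB replicate 2 (ratio 0.929). The uncertain split of reads between the models bears on this order. HB and LB did not overlap, nor did HE and LE, with log2 differences of the ratio of -0.97 and -0.48, and exact 2-sided permutation tests gave p = 0.1 for each, the smallest that 3 against 3 libraries allow. The log2 difference between HA and LA was -0.13 (exact permutation p = 0.4). Summed over both models, carbonic anhydrase stood at 275 ± 53.8 RPKM in HB and at 972 ± 242 RPKM in LB.

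The PPCK2 transcript was also set beside that of pep1, and which PEP carboxylase this kinase acts on was not tested. The ratio stood at 1.65 ± 0.00949 RPKM of PPCK2 per 1000 RPKM of pep1 in LE and at 3.88 ± 0.481 in HE. In the upper leaf it was 1.96 ± 0.680 in HA and 2.12 ± 0.728 in LA, with single libraries down to 1.46 and 1.59, below those of LE. In the lower leaf it was 25.4 ± 5.18 in HB and 2.73 ± 1.40 in LB. The log2 differences were 1.23 in the ear leaf and 3.32 in the lower leaf, both without overlap (exact permutation p = 0.1, the smallest possible), and -0.12 in the upper leaf with overlap (exact permutation p = 0.6). In the lower leaf this ratio combined log2 fold changes of -2.87 for pep1 and 0.42 for PPCK2, the latter not called. PPCK3, another of the 4 kinase models, had a higher mean than PPCK2 in HA, LA and LE but a lower one elsewhere. Summed over the 4 kinase models, levels overlapped between HB (14.9 to 26.98 RPKM) and LB (16.57 to 18.75 RPKM). These sums did not overlap between HE (31.85 to 35.24 RPKM) and LE (15.91 to 21.30 RPKM).

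**Figure D3:**
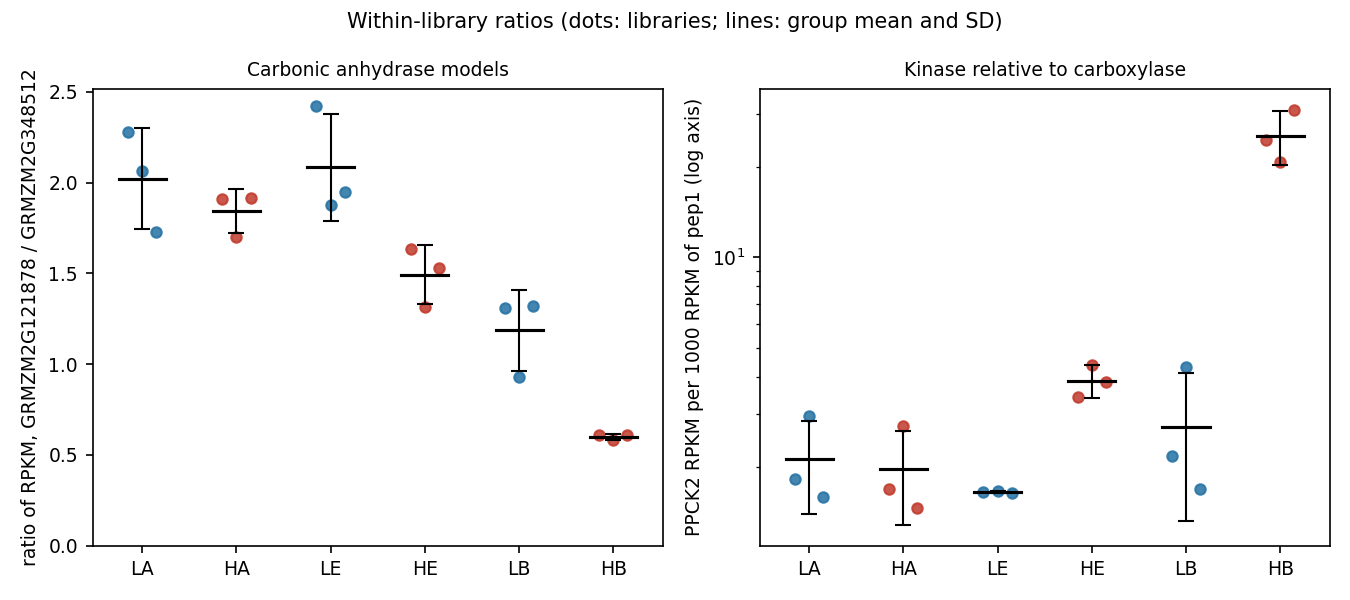
Ratio of GRMZM2G121878 to GRMZM2G348512 RPKM (left, linear axis from 0) and PPCK2 RPKM per 1000 RPKM of pep1 (right, log axis) in each library, with group means and, as bars, SD (n = 3). HB has the lowest carbonic anhydrase ratio (0.599) and the highest kinase to pep1 ratio (25.4).

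pep1 was also lower in HB relative to other mesophyll enzymes. Its level was 0.265 ± 0.0606 times that of C4ppdkZm1, the pyruvate phosphate dikinase that regenerates PEP, in HB and 0.739 ± 0.165 times in LB, with group means of 0.776 to 0.998 elsewhere. The log2 difference of that ratio between HB and LB was -1.48, without overlap (exact permutation p = 0.1, the smallest possible). Against mdh6, the malate dehydrogenase that reduces oxaloacetate to malate, the ratio was 1.48 ± 0.434 in HB and 3.77 ± 0.891 in LB. Against the summed carbonic anhydrases it was 1.75 ± 0.107 in HB and 3.72 ± 0.782 in LB.

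The members' patterns over the libraries are given as correlations of log2(RPKM + 0.5), which share each library's scaling and the low HB group. Over 18 libraries pep1 and GRMZM2G121878 correlated at 0.978, pep1 and GRMZM2G348512 at 0.920, and both carbonic anhydrases with each other at 0.938. Over the 15 libraries outside HB these were 0.849, 0.461 and 0.653. PPCK2 correlated at -0.19 with pep1, -0.31 with GRMZM2G121878 and -0.39 with GRMZM2G348512 over the 18 libraries, and at -0.058, -0.39 and -0.60 over the 15 outside HB.

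Among 14485 genes with a mean of at least 5 RPKM, the named genes most like pep1 were sps1 (GRMZM5G875238, r = 0.983), a sucrose phosphate synthase gene, GRMZM2G407996 (0.977) and C4ppdkZm1 (0.976). Without the HB libraries these were 0.743, 0.897 and 0.861. Most like GRMZM2G121878 were RH3A (GRMZM2G415491, 0.983), an RNA helicase gene, GRMZM5G836250 (0.983) and GRMZM2G097283 (0.982), and most like GRMZM2G348512 were GRMZM2G018403 (0.964), GRMZM2G145500 (0.960) and GRMZM2G000660 (0.955). PPCK2 had lower best values, with GRMZM2G155580 at 0.823, a histone H4 gene model (GRMZM2G181153) at 0.814 and hon110 (GRMZM2G164020) at 0.770. Without HB these were 0.831, 0.789 and 0.843.

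The related PEP carboxylases had log2 fold changes nearer to 0 than pep1 in the lower leaf. Of 3 models with such a name, pep1 and pep4 were called lower in HB against LB, where 33.4% of all genes were called and 11.3% called lower. pep4 was at 7.97 ± 1.09 RPKM in HB and 17.0 ± 5.72 RPKM in LB, a log2 fold change of -1.01 ± 0.30 (limma adjusted p = 0.0172), which lost its call without HB replicate 2 (adjusted p = 0.0646) or LB replicate 1 (adjusted p = 0.0919). pep7 had group means of 29.8 to 37.2 RPKM and a log2 fold change of -0.03 in HB against LB (adjusted p = 0.882). In HE against LE, where 13.9% of all genes were called, limma called 0 of the 3, and 1 had an unadjusted p under 0.05. In HA against LA, where 0.118% of all genes were called, it called 0 of the 3 and 0 had an unadjusted p under 0.05.

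Of the 4 PEP carboxylase kinase models, PPCK4 stayed under the filter at group means of 0.195 to 0.629 RPKM. PPCK3 was at 14.6 ± 1.84 RPKM in HE and 8.84 ± 2.53 RPKM in LE, without overlap, a log2 fold change of 0.72 that was not called (limma adjusted p = 0.0843). PPCK1 was at 0.34 there (adjusted p = 0.595). Of the 3 kinases tested, 2 had an unadjusted p under 0.05 in HE against LE. PPCK2 was the 1 kinase called by density, in the ear leaf, where 13.9% of all genes were called. PPCK1 and PPCK3 were called by leaf position. The shares of all genes called were 43.9% in HA against HB, 9.49% in LA against LB, 27.9% in HB against HE and 5.74% in LA against LE. PPCK1 was at 10.3 ± 5.65 RPKM in HA and 2.08 ± 1.19 RPKM in HB, a log2 fold change of 1.97 (adjusted p = 0.000634), and 1.74 in LA against LB (adjusted p = 0.0114). PPCK3 was at 1.16 in HA against HB (adjusted p = 0.00246) and 1.37 in LA against LB (adjusted p = 0.00597), at -1.19 in HB against HE (adjusted p = 0.00399) and at 1.08 in LA against LE (adjusted p = 0.0331), a call that 4 of 6 left-out libraries ended.

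Of 15 other genes of the C4 shuttle, named for dikinase, malate dehydrogenase, malic enzyme, carboxykinase, alanine aminotransferase and plastid transporters, 14 were tested. In HB against LB, 6 were called lower and 1 higher, where 33.4% of all genes were called and 11.3% called lower, with a median log2 fold change of -0.57 beside 0.16 for all genes. The largest were pDCT2, a plastid dicarboxylate transporter, at -1.76 (limma adjusted p = 5.82e-05) and mdh6 at -1.51 (adjusted p = 7.63e-05), both smaller than the change of pep1. In HE against LE, 1 was called higher and 1 lower, a share near the 13.9% of all genes called, with a median of -0.13 beside 0.03. These were pck2, PEP carboxykinase, at 0.81 (adjusted p = 0.011), and an alanine aminotransferase model, GRMZM2G088064, at -0.91 (adjusted p = 0.00919). pck2 lost its call without HE replicate 2 or 3. In HA against LA limma called 0 of 14, where 0.118% of all genes were called, and 1 had an unadjusted p under 0.05.

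**Figure D4:**
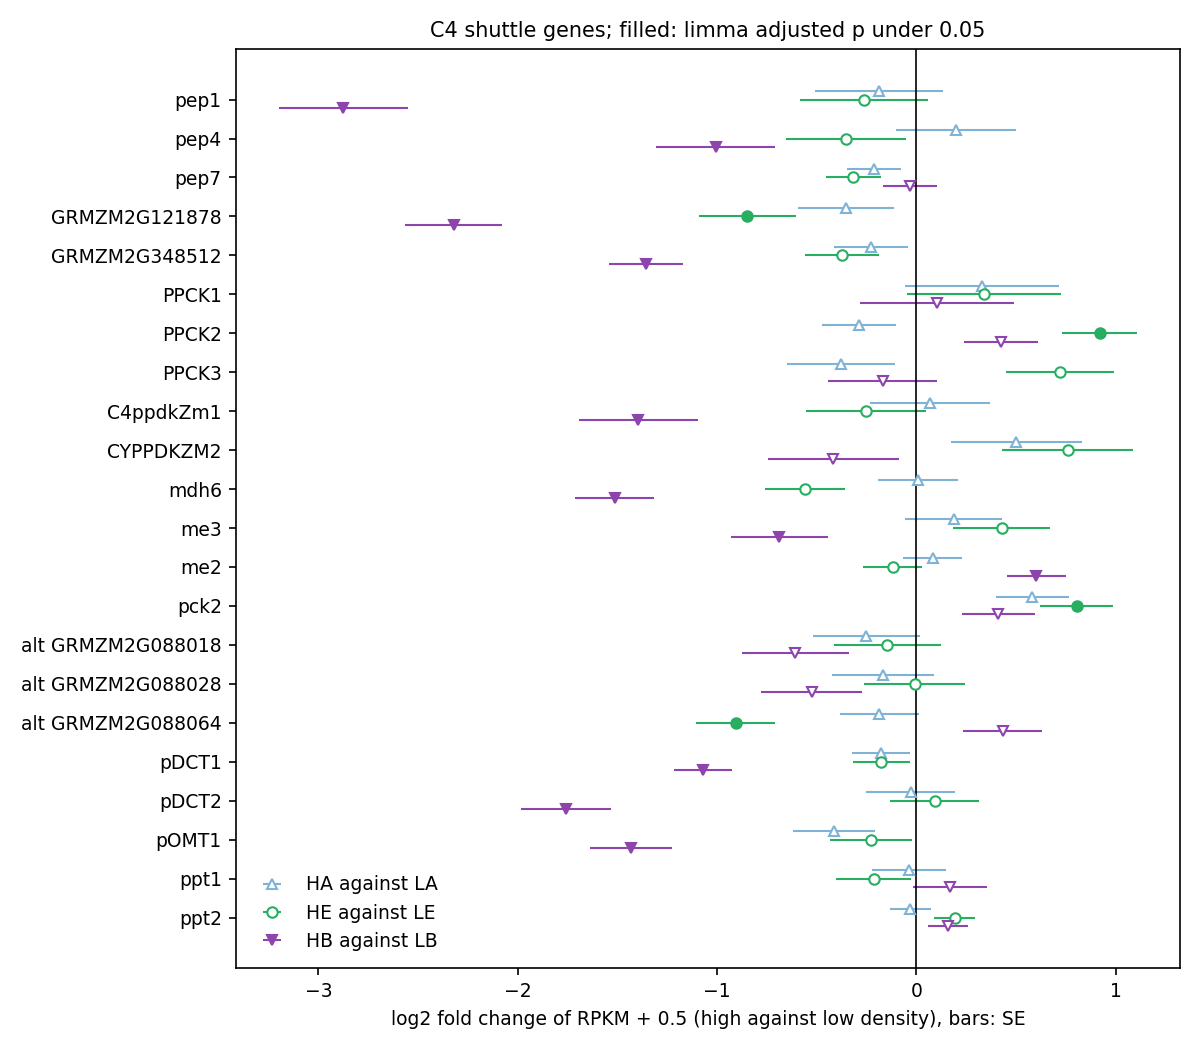
limma log2 fold change on log2(RPKM + 0.5) with SE of high against low density for the PEP carboxylases, carbonic anhydrases, PEP carboxylase kinases and other C4 shuttle genes, in the upper, ear and lower leaf, 3 libraries a group, filled where the adjusted p is under 0.05. In the lower leaf pep1 (-2.87) and GRMZM2G121878 (-2.32) lie lowest, and PPCK2 is the 1 kinase filled in the ear leaf (0.92).

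Most markers of both leaf cell types, and the ageing genes, differed between HB and LB as well. In HB against LB, 33.4% of all genes tested were called and 11.3% were called lower. Both mesophyll markers, C4ppdkZm1 and mdh6, were called lower there, and their summed level was 1745 to 2554 RPKM in HB and 4327 to 6972 RPKM in LB. Of 4 bundle sheath markers, both Rubisco small subunit models (-1.11 and -1.02) and me3 (-0.69), the malic enzyme of the bundle sheath, were called lower, while pck2 stood at 0.41 and was not called (limma adjusted p = 0.0937). The summed level of the 4 was 839 to 1397 RPKM in HB and 1543 to 1965 RPKM in LB. The me3 call ended without any of 5 of the 6 libraries, and with no filter on low values both it and the call of C4ppdkZm1 (adjusted p = 0.0931) ended. The Rubisco calls each ended on leaving out 1 or 2 of the 6 libraries. All 3 ageing genes were called higher, namely SGR2, a stay-green gene of chlorophyll breakdown, and ICL and LIP, genes of the glyoxylate cycle enzymes isocitrate lyase and malate synthase. Their summed level was 186 to 608 RPKM in HB and 4.28 to 8.59 RPKM in LB, and ICL was listed at 0 in all HA and LE libraries. ICL and LIP reached the filter of 1 RPKM only through the HB libraries. Their calls as higher in HB are therefore not independent of that filter. The part of these shifts in the lower values of pep1 and the carbonic anhydrases was not tested, and in leaf RNA fewer mesophyll cells and less RNA per cell cannot be told apart. In the ear leaf, 13.9% of all genes were called between HE and LE, and 8.97% were called higher. There limma called 0 of 2 mesophyll markers (1 at an unadjusted p under 0.05) and 0 of 3 ageing genes (0 at an unadjusted p under 0.05). ICL and LIP were near 0 in both groups, with means of 0.0819 and 0.184 RPKM in HE and 0 and 0.0262 RPKM in LE. Tests on log2(RPKM + 0.5) had little room to show a difference in these genes. SGR2 had means of 3.11 RPKM in HE and 2.93 RPKM in LE. Of the 4 bundle sheath markers, pck2 was called higher in HE (0.81), and 2 had an unadjusted p under 0.05. The other values were 0.72 and 0.60 for the Rubisco models and 0.43 for me3, and the summed level was 1632 to 1962 RPKM in HE and 999.5 to 1410.3 RPKM in LE. The antenna gene lhcb5 was also called higher in HE, at 1.14 (limma adjusted p = 0.00554). The part of these shifts in the ear-leaf values of PPCK2 and GRMZM2G121878 was not tested.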

How the data were processed

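Per the labels' protocols, total RNA of leaves was made into libraries with an NEBNext Ultra kit. The submitters' processing notes name Trimmomatic 0.35, HISAT 0.1.6, HTSeq 0.6.1 and the build B73 RefGen_v3. The authors deposited RPKM per gene model and library, and strandedness and gene lengths are not given in the sources used here. Of 4828 values above 1 read in 3095 rare genes, 99.4% lay within 0.1 of a whole multiple of the value of 1 read (median 0.0489 RPKM), against 20% of evenly spread values, which gave the relative depth.

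Genes reaching 1 RPKM in 3 or more libraries were fitted as log2(RPKM + 0.5) with limma 3.58.1 (R 4.3.3) with an intensity trend, a mean for each of 6 groups, 12 residual and 4.475 prior degrees of freedom, 2-sided tests and Benjamini-Hochberg adjustment. The fit was tested on simulated data. Ratios used exact 2-sided permutation tests (SciPy 1.17.1). Shared replicate numbers were checked as pairs: in 2 of 15 pairs of groups (HA with HE, HA with LB) all 3 correlations of deviations from group means lay above 0.1, and the block was fitted as an alternative over all 18 libraries. Alternatives were other pseudocounts, no filter, median-ratio and quantile scaling, no trend, only the groups compared, a replicate block and left-out libraries.

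Members and lists were chosen with earlier results of these data known. The 4 members are named in every comparison. The related PEP carboxylase and kinase families are given by counts and by value where called or above 5 RPKM. Also named are the up to 2 most changed shuttle genes by density comparison, and the 3 genes most alike to each member with a RefSeq name. Carbonic anhydrase models other than the members were planned as a family but were not listed, so the members need not be the whole family. The lists were to be matched by RefSeq descriptions, but the table used (Zm-B73-REFERENCE-NAM-5.0, 17837 models matched, 489 to more than 1 row) gave symbols and synonyms, which were used instead. Pep1 (GRMZM5G899080), a different gene from pep1, was left out of the lists. From that table's positions only chromosome and gene order were taken, and sequences were not used here.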

Additional observations from a re-analysis of the deposited data

Results flagged for a closer look

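The density change differed between leaf positions for 3 of the 4 genes in limma's test of the difference itself. Between the lower and the ear leaf the log2 differences were -2.61 for pep1, -1.47 for GRMZM2G121878 and -0.99 for GRMZM2G348512. Between the lower and the upper leaf they were -2.69, -1.97 and -1.13 in the same order, with the conflicting LA label on one side. Of all genes, 3.85% were called in the former test and 11.4% in the latter. The 3 calls against the ear leaf ended with no filter on low values. Of 12 left-out libraries, 8 ended that of GRMZM2G121878 and 10 that of GRMZM2G348512. The 6 values share the HB and LB libraries, and the PPCK2 differences were not called.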

How the results depend on the processing

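The calls of pep1 and both carbonic anhydrases in HB against LB, HB against HE and HA against HB, and of PPCK2 in HE against LE, held in all 15 alternatives each. A replicate block over all 18 libraries changed no call of a member, and PPCK2 in HE against LE stayed at 0.92 under the block (limma adjusted p = 0.00595). With no filter on low values the members called fell to 1 in HE against LE (GRMZM2G121878 at -0.85, no longer called), 0 in LA against LB and 0 in the lower against ear leaf difference of the density change (pep1 -2.61, GRMZM2G121878 -1.47, GRMZM2G348512 -0.99, none called). Median-ratio scaling, or fitting only the groups compared, left 0 in LA against LB. The lower against ear leaf difference of GRMZM2G348512 also lost its call after median-ratio scaling (-1.11), with no intensity trend (-0.99) and with only the groups compared (-0.99), and quantile normalization called GRMZM2G348512 in HE against LE (-0.48). The cause was not tested, except that more genes are tested without the filter.

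Quantile normalization reversed 5 differences that were not called: in LA against LE pep1 (-0.090), GRMZM2G121878 (-0.15) and GRMZM2G348512 (-0.079), and for GRMZM2G348512 also LB against LE (-0.011) and LA against LB (-0.069). With each library left out in turn, the members called ranged from 1 to 2 in HE against LE, 0 to 1 in HA against HE, 0 to 1 in LA against LB, 1 to 3 in the lower against ear leaf difference and 0 to 1 in the upper against ear leaf difference. The log2 differences then ranged, for PPCK2, from 0.54 to 0.93 for the lower against upper leaf, from -1.43 to -1.09 for the upper against ear leaf and from 0.26 to 0.58 in HB against LB. For pep1 the upper against ear leaf difference ranged from -0.066 to 0.17. GRMZM2G121878 ranged from -1.01 to -0.65 in HE against LE, from -1.77 to -1.28 for the lower against ear leaf and from -0.11 to 0.19 in LA against LE. GRMZM2G348512 ranged from -1.12 to -0.84 for the lower against ear leaf, from -0.043 to 0.30 for the upper against ear leaf, from -0.094 to 0.25 in LA against LE, from -0.12 to 0.22 in LA against LB and from -0.074 to 0.16 in LB against LE.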
